A study of Mus musculus with 12 samples.

Results

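The 10 genes of the later granules of neutrophils, Ltf, Ngp, Camp, Lcn2, Chil3, Cd177, Mmp8, Mmp9, S100a8 and S100a9, were followed across the 4 groups of the series. They were chosen by name, with earlier results of these data known. Each was found once among the symbols of 54532 counted gene IDs, and all 10 were among the 16675 genes that passed the low-count filter. Messenger RNA of mouse bone marrow haematopoietic stem and progenitor cells (HSPCs), the cells from which the blood lineages arise, had been sequenced in 12 libraries, 3 in each group. The groups were aged HSPCs cultured with uridine, a pyrimidine nucleoside, aged HSPCs cultured with vehicle, uncultured aged HSPCs and uncultured young HSPCs. All were labelled wild type: the genotype labels read c57bl/7 WT to c57bl/9 WT for the uridine libraries, c57bl/6 WT for the vehicle libraries, c57bl/13 WT to c57bl/15 WT for the uncultured aged libraries and c57bl/10 WT to c57bl/12 WT for the young libraries. These numbers run on from sample to sample, so the strain is uncertain. The sources used here give no age in weeks, no sorting markers, no uridine dose and no length of culture. They also do not state that replicates came from separate mice. Each p-value reflects the spread among libraries within all 4 groups, as the fit pools it, and that spread may be technical.

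A neutrophil fills its granules in sequence. Promyelocytes make the primary granules with myeloperoxidase and the serine proteases, myelocytes and metamyelocytes then make the specific granules with lactoferrin, cathelicidin and lipocalin 2, and still later cells make the gelatinase granules with Mmp9, while the transcription factor C/EBP epsilon is required for the specific granules. In bone marrow the genes of the specific and gelatinase granules therefore mostly mark cells well past the progenitor stage, and are not typical of stem cells. Some members are not confined to these granules or to neutrophils, as given below.

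Library totals lay between 16785065 and 19025802 counts. Levels are given as CPM, the usual depth-scaled unit of counts, computed with TMM factors. Kit, the stem cell factor receptor, was at 274 ± 3.85, 262 ± 1.42, 201 ± 3.30 and 254 ± 4.23 CPM in uridine, vehicle, uncultured aged and young libraries (SD, n = 3 each). This progenitor marker was thus well detected in every group, though lower in uncultured aged cells. Other stem and progenitor genes also differed between groups. Ly6a, the Sca-1 antigen, was at 258 ± 7.76, 455 ± 12.8, 247 ± 4.80 and 17.8 ± 0.986 CPM in the same groups. Of 12 such genes, Kit among them, 5 were higher, 4 lower and 3 not called in aged against young cells by the test used below. Of all genes tested 33.2% were called higher and 32.1% lower there. Genes of later cells were read too, some of them in only part of the groups. Immunoglobulin genes with Jchain took 21.6 to 21.9% of the counts of the uncultured aged libraries, against 0.540 to 0.924% elsewhere. Every pair of libraries within a group differed by more than sampling noise (chi-square 2.27 to 3.94 per degree of freedom). In the uridine libraries, genes of several lineages that were low in vehicle cultures and high in young cells stood at like places between these groups (median 34.0% of the way over 256 genes other than the members), as described at the end. Whether the uridine libraries hold RNA of young cells was not tested, and every uridine value is given under that limit.

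The members lie on 4 chromosomes of GRCm38 (the mm10 build), by GENCODE M21. Camp (chr9:109847379-109849617, minus strand), which encodes the cathelicidin antimicrobial peptide, Ngp (chr9:110419747-110423012, plus strand), a cathelicidin-related granule protein, and Ltf (chr9:111019271-111042767, plus strand), which encodes the iron-binding protein lactoferrin, follow each other on chromosome 9 with 570.1 and 596 kb between them. Mmp8 (chr9:7558456-7568485, plus strand), the neutrophil collagenase, lies far from them on the same chromosome. S100a8 (chr3:90668978-90670035, plus strand) and S100a9 (chr3:90692632-90695721, minus strand), whose products pair as the cytosolic calcium-binding protein calprotectin, are neighbours on chromosome 3, which also carries Chil3 (chr3:106147554-106167564, minus strand), a chitinase-like secreted protein also made by macrophages. Lcn2 (chr2:32384633-32388252, minus strand), a binder of bacterial siderophores, and Mmp9 (chr2:164940780-164955850, plus strand), gelatinase B, are on chromosome 2, and Cd177 (chr7:24743983-24760311, minus strand), a surface protein of neutrophils, is on chromosome 7. No exon of a member overlapped another annotated gene. Chil3 has a near-identical copy in Chil4 (94.3% identity over 1540 bases), to which 0 counts were assigned in the 12 libraries against 44836 for Chil3, and Cd177 shares up to 303 bases at 96.0% identity with Gm4763, which had 4 counts against 13654, so reads of such copies cannot be fully told apart.

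Promoter windows from 250 bases before to 50 bases after the transcript start were found for 9 of the 10 members in the RefSeq table of GRCm38.p6. The 250 bases before the start are shown for Ltf and Ngp, the members with the highest CPM on chromosome 9, for the calprotectin pair, and for Mmp8, the member whose levels ran apart from the rest below. Each reads 5′ to 3′ on the strand of the gene, with matches to the motifs of C/EBP factors (TTNNGNAA), PU.1 (GAGGAA) and the TATA box (TATAAA) in capitals, on both strands, and in S100a8 a PU.1 match runs directly into the TATA letters.
Ltf (chr9:111019042-111019291, plus strand): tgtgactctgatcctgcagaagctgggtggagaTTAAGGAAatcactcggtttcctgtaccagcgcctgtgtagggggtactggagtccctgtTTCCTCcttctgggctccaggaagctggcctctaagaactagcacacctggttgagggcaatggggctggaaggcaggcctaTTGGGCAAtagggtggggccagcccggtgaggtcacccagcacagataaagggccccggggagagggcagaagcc
Ngp (chr9:110419558-110419807, plus strand): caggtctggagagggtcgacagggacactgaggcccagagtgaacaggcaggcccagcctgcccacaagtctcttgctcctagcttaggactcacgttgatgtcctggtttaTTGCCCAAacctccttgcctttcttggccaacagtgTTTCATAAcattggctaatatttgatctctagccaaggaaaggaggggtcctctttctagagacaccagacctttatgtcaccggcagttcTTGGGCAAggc
S100a8 (chr3:90668821-90669070, plus strand): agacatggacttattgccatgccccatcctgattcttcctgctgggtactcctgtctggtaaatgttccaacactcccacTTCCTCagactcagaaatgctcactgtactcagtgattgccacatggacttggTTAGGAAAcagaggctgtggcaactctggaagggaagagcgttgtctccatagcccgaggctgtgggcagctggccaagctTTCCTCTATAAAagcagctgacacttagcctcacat
S100a9 (chr3:90695722-90695971, minus strand): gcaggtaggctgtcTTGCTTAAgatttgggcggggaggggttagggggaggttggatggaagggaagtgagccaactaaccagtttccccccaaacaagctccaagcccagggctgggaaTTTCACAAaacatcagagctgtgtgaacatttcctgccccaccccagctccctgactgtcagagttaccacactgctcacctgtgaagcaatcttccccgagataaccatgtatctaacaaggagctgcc
Mmp8 (chr9:7558179-7558428, plus strand): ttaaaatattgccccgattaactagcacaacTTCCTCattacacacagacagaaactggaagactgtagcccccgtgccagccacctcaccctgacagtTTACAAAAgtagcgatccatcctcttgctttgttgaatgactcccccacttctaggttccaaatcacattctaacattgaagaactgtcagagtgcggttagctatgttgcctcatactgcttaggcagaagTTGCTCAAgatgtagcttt
The C/EBP letters occurred in 8 of the 9 windows, all but that of Camp, and in 40.7% of 32851 promoter windows of mouse genes. The PU.1 letters occurred in 5 of the 9 and in 28.3% of all windows, and the TATA letters in 5 of the 9 and in 13.6% of all windows. Matches of the TATA letters in Mmp8 and S100a9 lay across or after the start and are not in the stretches shown. The C/EBP motif allows many sequences and a match is not a binding site. For Ltf, Ngp and S100a8 the stretch shown ends inside the gene interval given above, as the RefSeq and GENCODE starts differ.

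In young cells the members differed widely in level. Per kb of merged exons, S100a9 stood at 2425 ± 101 CPM, Ngp at 1311 ± 27.8, S100a8 at 1016 ± 45.1, Camp at 587 ± 7.40, Ltf at 297 ± 2.37, Chil3 at 287 ± 5.49, Lcn2 at 120.2 ± 1.42, Cd177 at 56.8 ± 1.26, Mmp9 at 27.3 ± 1.29 and Mmp8 at 17.5 ± 0.977 CPM per kb (SD, n = 3). In vehicle cultures the order was different, with S100a9 at 205 ± 6.55, S100a8 at 109.9 ± 2.21 and Chil3 at 44.2 ± 1.52 CPM per kb in front. Ngp at 26.1 and Mmp8 at 25.1 CPM per kb followed and differed by less than the spread of Ngp between libraries, and Mmp9 was last at 0.0773 ± 0.0272 CPM per kb.

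Together the 10 genes reached 2329 ± 36.2 CPM in uridine cultures, 399 ± 2.69 CPM in vehicle cultures, 645 ± 22.9 CPM in uncultured aged cells and 6126 ± 106 CPM in uncultured young cells (SD, n = 3 each). The 4 groups kept apart in this sum in every library. As a share of all counts the members took 0.249%, 0.0420%, 0.0539% and 0.648% in the same groups. In these bulk libraries fewer maturing neutrophils and less granule RNA per cell cannot be told apart.

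**Figure D1:**
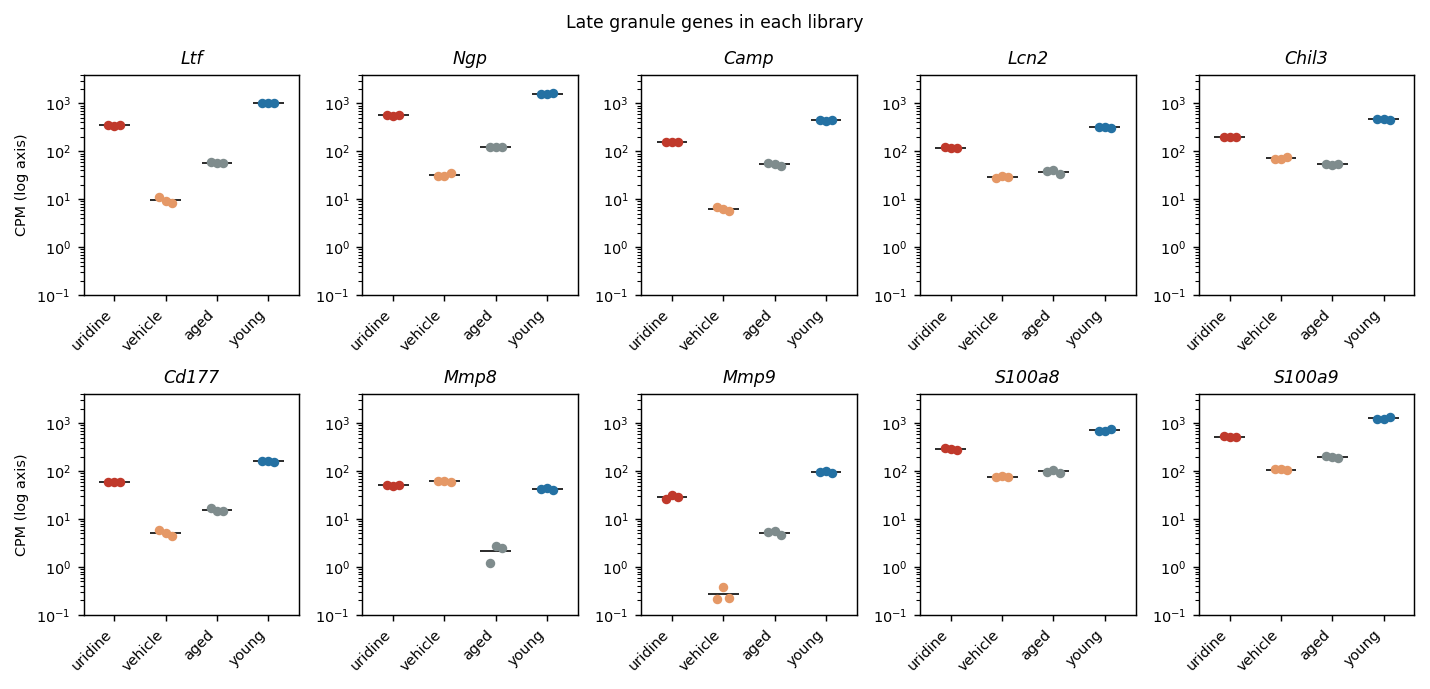
CPM of each late granule gene in each of the 12 libraries on a log axis, with points for libraries and a line for the mean of each group of 3. Young libraries were highest for 9 genes, and Mmp8 was highest in vehicle cultures at 59.8 to 62.0 CPM.

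Aged cells were first set against young cells, both uncultured. Genes of other cell types also differed between these libraries, as given below, so age and the make-up of the libraries cannot be told apart here. Every late granule gene was lower in aged cells, by 6.36 to 19.9 times, and the specific granule genes Ltf and Ngp fell further than the calprotectin genes. Ltf was at 59.6, 56.4 and 56.0 CPM in the aged libraries and at 1015, 1026 and 1031 CPM in the young ones. Ngp was at 122, 125 and 121 CPM in aged and at 1582, 1583 and 1641 CPM in young libraries. The groups were far apart for both genes, with a tight spread within each. S100a9 was at 209.7, 196 and 191 CPM in aged and at 1237, 1234 and 1327 CPM in young libraries. Mmp8 was at 1.20, 2.71 and 2.48 CPM in aged and at 42.7, 44.6 and 39.9 CPM in young libraries, with 93 counts behind the aged values. Relative to their mean, the aged values of Mmp8 spread more than those of the other members, but none came near the young range.

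By edgeR's quasi-likelihood test with Benjamini-Hochberg adjustment over all genes, all 10 members passed the threshold of 0.05 as lower in aged cells, where 32.1% of the genes tested were called lower. Their median log2 fold change was -3.25, against 0.02 over all genes tested. The largest changes were those of Mmp8 (-4.32, SE 0.123, adjusted p = 7.73e-27), Mmp9 (-4.21, SE 0.0966, adjusted p = 9.01e-30) and Ltf (-4.16, SE 0.0380, adjusted p = 1.43e-42), and the smallest those of S100a8 (-2.84, SE 0.0371, adjusted p = 1.07e-37) and S100a9 (-2.67, SE 0.0324, adjusted p = 1.08e-38). Between them lay Ngp at -3.71, Cd177 at -3.36, Chil3 at -3.13, Lcn2 at -3.06 and Camp at -3.05. Camp, at 53.5 ± 5.02 CPM in aged and 445 ± 5.61 CPM in young cells, kept 12.0% of its young level while Ltf kept 5.60%. The ratio of Camp to Ltf counts was accordingly 0.933 ± 0.0612 in aged and 0.434 ± 0.00692 in young libraries.

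**Figure D2:**
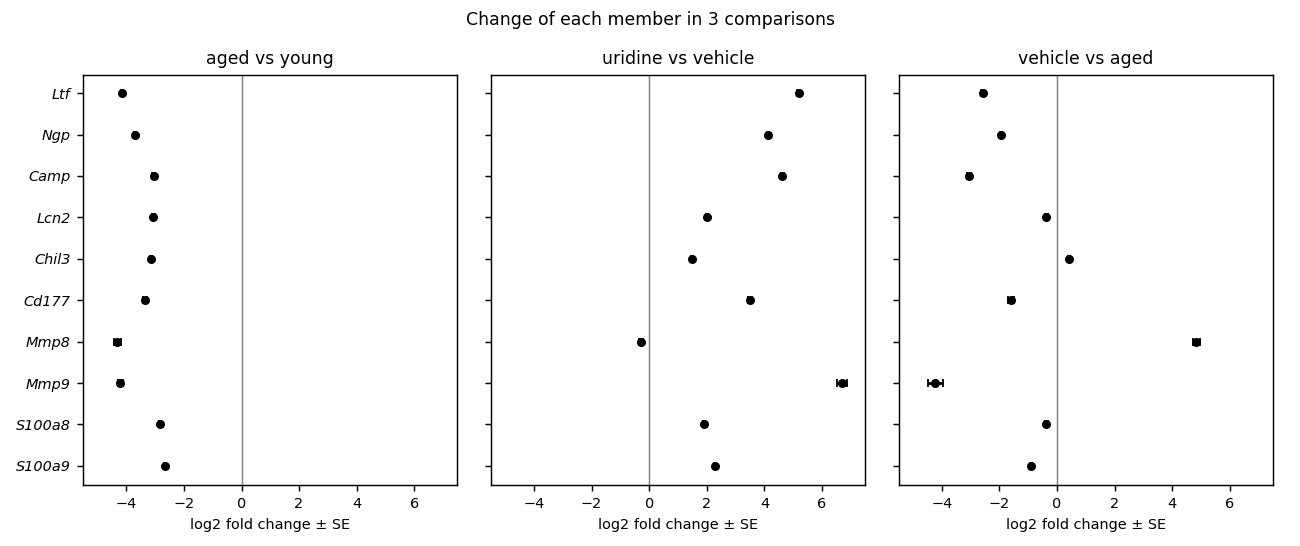
Log2 fold change of each member with its SE in 3 comparisons, from the quasi-likelihood fit of all 12 libraries. All 10 genes lie below 0 in aged against young cells, 9 lie above 0 in uridine against vehicle cultures, and Mmp8 lies at 4.84 in vehicle cultures against uncultured aged cells.

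A list of primary granule genes and genes expressed with them mostly went the other way in aged cells. It held Mpo, Elane, Prtn3, Ctsg, Prss57, Ms4a3, Ctsc, Srgn and Serpinb1a. Of these 9 genes 8 were higher in aged cells, where 33.2% of all genes tested were called higher. None of the 9 was lower and Ctsc was not called, with a median log2 fold change of 0.87. Mpo, myeloperoxidase, was at 7254 ± 182 CPM in aged and 6020 ± 87.9 CPM in young cells, and Elane, neutrophil elastase, at 2795 ± 72.7 and 1386 ± 13.8 CPM (SD, n = 3 each). The summed late granule level was 0.0417 ± 0.00204 of the summed primary granule level in aged libraries and 0.587 ± 0.0158 in young libraries. Other genes of neutrophil maturation gave 15 lower, 4 higher and 1 not called of 20, with a median of -0.96. Retnlg, a resistin-like protein of neutrophils, was at 1.28 ± 0.849 CPM in aged and 52.9 ± 0.515 CPM in young cells, whereas Slpi, an inhibitor of serine proteases, was at 569 ± 5.09 and 59.5 ± 2.57 CPM. Among 12 neutrophil receptor genes 11 were lower and 1 higher (median -1.22). Ly6g, the antigen of mature neutrophils, was at 0.407 ± 0.239 CPM in aged and 12.3 ± 1.02 CPM in young cells.

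Of 8 transcription factor genes of granulocyte and monocyte development 2 were higher, 4 lower and 2 not called with age (median -0.13). Cebpe, which encodes C/EBP epsilon, was at 34.0 ± 2.15 CPM in aged and 35.6 ± 2.62 CPM in young cells (log2 fold change -0.06, edgeR adjusted p = 0.483). Gfi1, a repressor needed for granulocyte development, was at 99.4 ± 6.36 CPM in aged and 48.6 ± 3.19 CPM in young cells and rose by 1.03 on the log2 scale. Other cell types moved in the same libraries, and their part in the result was not tested. Of 15 erythroid genes 14 were lower in aged cells (summed level 408 to 415 CPM in aged and 955 to 970 CPM in young libraries). Stroma and endothelium gave 6 of 10 tested genes lower and 2 higher (34.6 to 42.6 and 545 to 573 CPM, with Bglap at 0 in aged libraries). Genes of B cells and precursors gave 6 lower and 4 higher of 10 (1584 to 1672 and 776 to 785 CPM), with log2 fold changes of -4.78 for Igll1, of the pre-B cell receptor, and 2.38 for Cd79a, of the B cell receptor. All 8 plasma cell genes were higher (25634 to 25891 and 634 to 643 CPM). Among mast cell, basophil and eosinophil genes 9 of 10 were lower (332 to 342 and 1420 to 1467 CPM), and among monocyte and macrophage genes 8 of 15 tested (1147 to 1188 and 1615 to 1616 CPM). The last of these lists is not specific to its cells, since it holds genes that neutrophil precursors also express.

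**Figure D3:**
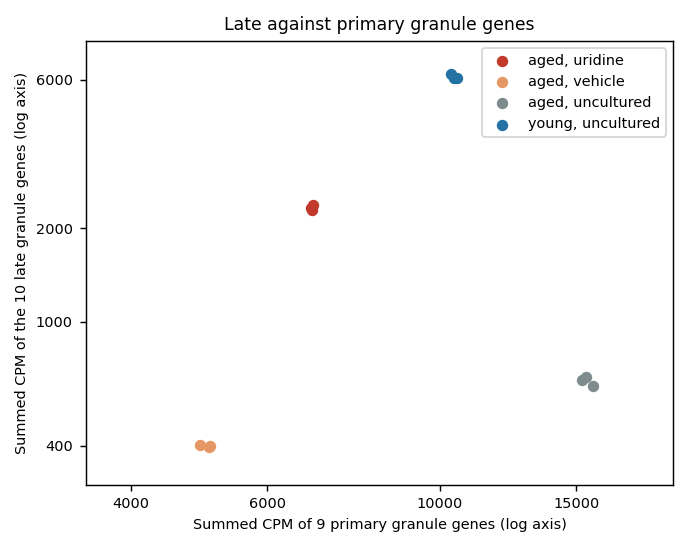
Summed CPM of the 10 late granule genes against the summed CPM of 9 primary granule genes in each library, both axes logarithmic. Uncultured aged libraries combine the highest primary sums (15243 to 15749 CPM) with late sums of 620.1 to 665 CPM, and young libraries have the highest late sums (6059 to 6249 CPM).

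Aged cells cultured with vehicle were set against uncultured aged cells, and here the members parted. Since genes of other cell types also differed, as given below, culture and the make-up of the libraries cannot be told apart. Of the 10 genes 8 fell further, Chil3 rose slightly and Mmp8 rose strongly. Mmp9 was at 0.210, 0.385 and 0.226 CPM in vehicle libraries, 15 counts in all, and at 5.39, 5.71 and 4.55 CPM in uncultured aged libraries. Camp was at 6.99, 6.37 and 5.82 CPM in vehicle and at 58.4, 53.8 and 48.4 CPM in uncultured aged libraries. Both genes had their lowest level of the 4 groups in vehicle cultures, with no overlap. Mmp8 was at 62.0, 61.1 and 59.8 CPM in vehicle libraries, above every uncultured library of either age. Chil3 was at 70.6, 70.8 and 74.9 CPM in vehicle and at 55.0, 51.5 and 54.3 CPM in uncultured aged libraries.

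By edgeR's test 8 members were lower and 2 higher in vehicle cultures, where 35.1% of the genes tested were called lower and 35.4% higher. Mmp9 (log2 fold change -4.22, SE 0.263, adjusted p = 1.19e-16), Camp (-3.06, SE 0.0714, adjusted p = 6.89e-30) and Ltf (-2.58, SE 0.0591, adjusted p = 3.72e-30) fell most. Ngp fell by 1.94, Cd177 by 1.58 and S100a9 by 0.90 on the log2 scale. Lcn2 and S100a8 fell by 0.36 and 0.37, that is to 77.7% and 77.5% of the uncultured level. Chil3 rose by 0.43 (SE 0.0406, adjusted p = 1.25e-11) and Mmp8 by 4.84 (SE 0.118, adjusted p = 2.78e-29), or 28.7 times. The median of the 10 was -1.24, against -0.01 over all genes tested. Primary granule genes fell too in this comparison, 8 of 9, and Cebpe fell by 1.80 on the log2 scale to 9.73 ± 0.687 CPM.

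Monocyte and macrophage genes rose in the same cultures: 10 of 15 tested were higher and 5 lower (summed level 2749 to 2783 CPM in vehicle and 1147 to 1188 CPM in uncultured aged libraries, with Retnla and Chil4 at 0 in both). Fcgr1, the high-affinity IgG receptor, was at 99.6 ± 0.372 CPM in vehicle and 0.635 ± 0.266 CPM in uncultured aged cells, and Adgre1, the F4/80 antigen, at 109.9 ± 1.63 and 13.0 ± 2.01 CPM. The 5 lower genes were F13a1, a coagulation factor subunit of monocytes (220.4 ± 3.48 and 339.9 ± 22.1 CPM), Arg1, arginase (0.307 ± 0.156 and 3.76 ± 1.13 CPM), and the complement genes C1qa (0.813 ± 0.313 and 4.88 ± 1.14 CPM), C1qb and C1qc. Lyz2, a lysozyme of both neutrophils and macrophages, was at 2768 ± 22.0 CPM in vehicle and 140.0 ± 2.18 CPM in uncultured aged cells. In the same cultures 13 of 15 erythroid genes were lower (187 to 194 CPM in vehicle and 408 to 415 CPM in uncultured aged libraries), as were 9 of 10 genes of B cells and precursors (39.8 to 42.9 and 1584 to 1672 CPM), all 8 plasma cell genes (1044 to 1092 and 25634 to 25891 CPM) and 7 of 10 tested stroma genes, whose sum was nevertheless higher (86.4 to 88.1 and 34.6 to 42.6 CPM). The erythroid genes had a median log2 fold change of -4.24. Most of their sum in vehicle libraries was Car2, a carbonic anhydrase, at 160 ± 1.75 CPM there and 161 ± 7.07 CPM in uncultured aged cells. Likewise most of the stroma sum in vehicle libraries was Kdr and Pdgfrb. Kdr was at 43.5 ± 0.820 CPM there and 0.961 ± 0.576 CPM in uncultured aged cells, and Pdgfrb at 40.9 ± 0.490 and 21.9 ± 2.88 CPM. Col1a1, a collagen chain, was at 0.236 ± 0.0577 and 0.960 ± 0.201 CPM. The part of these other cells in the rise of Mmp8 and Chil3 and in the fall of the other members was not tested. The nearest tested protein-coding genes on either side of Mmp8 also encode metalloproteinases. Mmp12, macrophage elastase, had 959 counts over the vehicle libraries and 0 over the uncultured aged ones, which allows up to 3 counts, and Mmp27 had 115 and 3 counts. Both rose by edgeR's test. In all, the members had 18 other nearest neighbours, of which 8 were higher, 5 lower and 5 not called in this comparison, and 4, 7 and 7 in aged against young cells, with a median of -0.31 there against -3.25 for the members. These neighbours were looked at after the members' values were known.

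**Figure D4:**
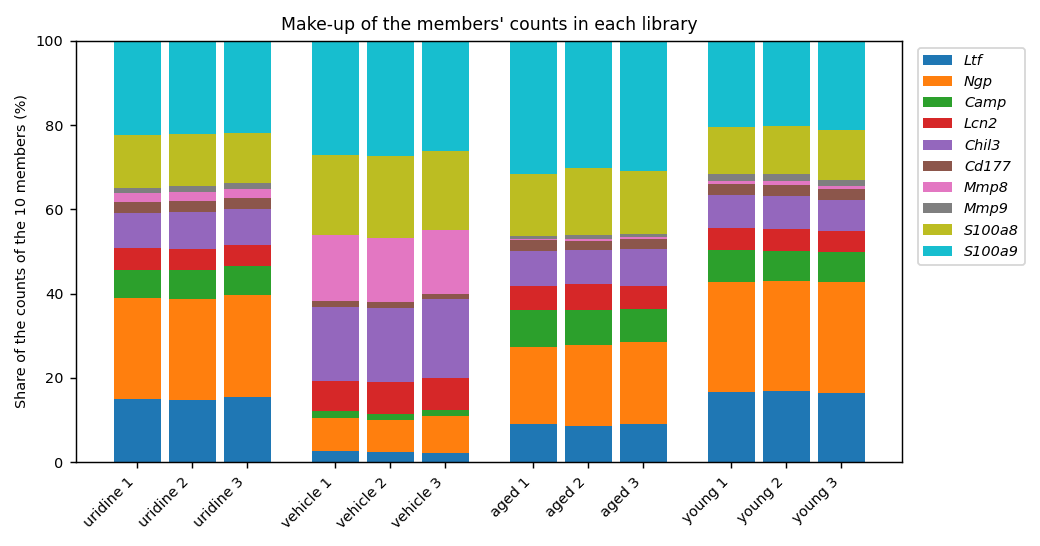
Share of each member in the counts of the 10 members in each library, stacked to 100%. In vehicle libraries Mmp8 takes 15.1 to 15.5% and Ltf 2.10 to 2.72%, and the makeup of uridine libraries is close to that of young libraries for most genes.

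Aged cells cultured with uridine were compared with those cultured with vehicle, the contrast of the series for the nucleoside. Of the late granule genes 9 were higher in the uridine libraries, from 2.77 times for Chil3 to 104 times for Mmp9, and Mmp8 was slightly lower. Ltf was at 356, 337 and 359.9 CPM in uridine libraries and at 10.9, 9.39 and 8.30 CPM in vehicle libraries. Ngp was at 566, 554 and 561 CPM in uridine and at 30.6, 30.4 and 34.7 CPM in vehicle libraries. All uridine values lay far above all vehicle values for both genes. S100a9 was at 531, 509 and 507 CPM in uridine and at 108, 109.8 and 103 CPM in vehicle libraries. Mmp9 was at 26.0, 31.9 and 29.4 CPM in uridine libraries. Mmp8 was at 50.8, 49.7 and 50.8 CPM in uridine libraries, just below the vehicle range given above.

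By edgeR's test 9 members were higher and 1 lower with uridine, where 20.0% of the genes tested were called higher and 18.1% lower. The largest log2 fold changes were those of Mmp9 (6.70, SE 0.176, adjusted p = 4.02e-27), Ltf (5.20, SE 0.0485, adjusted p = 1.82e-41) and Camp (4.63, SE 0.0612, adjusted p = 1.40e-36). Ngp followed at 4.14, Cd177 at 3.50, S100a9 at 2.27, Lcn2 at 2.01, S100a8 at 1.91 and Chil3 at 1.47. Mmp8 fell by 0.27 (SE 0.0689, adjusted p = 0.00161), to 82.7% of the vehicle level. The median of the 10 was 2.89, and that of all genes tested was -0.00106. The comparison shares its vehicle libraries with the preceding one, so the order of the genes in both is not independent.

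The other neutrophil lists did not move as one, and they are not specific to neutrophils. They hold genes such as Lyz2 that macrophages also express, so the counts below do not describe neutrophils alone. Of the 20 other maturation genes 9 were higher, 9 lower and 2 not called with uridine (median 0.07). Retnlg had 1154 counts over the uridine and 3 over the vehicle libraries, and Itgb2l, an integrin chain of neutrophils, was at 17.2 ± 1.21 CPM in uridine and 1.49 ± 0.567 CPM in vehicle cultures. Lyz2 and Cybb, the catalytic chain of the phagocyte oxidase, fell by 0.63 and 0.35 on the log2 scale. Of 12 receptors 6 were higher and 5 lower. Ly6g was at 3.73 ± 0.580 CPM with uridine and had 0 counts with vehicle, and Fpr2, a formyl peptide receptor that also binds cathelicidin, was at 19.5 ± 2.63 CPM with uridine and 35.9 ± 1.32 CPM with vehicle. Primary granule genes gave 5 higher, 2 lower and 2 not called (median 0.14), with Mpo at 3544 ± 16.3 CPM in uridine and 2171 ± 45.8 CPM in vehicle cultures. Among the transcription factors 4 were higher, 1 lower and 3 not called, and Cebpe was at 19.3 ± 0.245 CPM with uridine and 9.73 ± 0.687 CPM with vehicle (log2 fold change 0.98, edgeR adjusted p = 9.05e-11). Of 10 tested genes for inhibitors, receptors and partners of the member proteins 0 were higher, 7 were not called and 3 were lower, namely Timp3, an inhibitor of metalloproteinases, Lrp1, a receptor that takes up lactoferrin, and Tlr4, a receptor of calprotectin, which fell by 0.51, 0.28 and 0.54.

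Genes of several other cell types were also higher in the uridine libraries, and those of others were not. All 10 tested genes of B cells and their precursors were higher with uridine (summed level 274 to 289.9 CPM in uridine and 39.8 to 42.9 CPM in vehicle libraries). Of 15 erythroid genes 14 were higher (427 to 441 and 187 to 194 CPM, with Slc4a1 and Rhag at 0 in vehicle libraries), and of 10 tested stroma and endothelium genes 7 were higher and 2 lower (203 to 213 and 86.4 to 88.1 CPM, with Ibsp, Col3a1 and Pdgfra at 0 in vehicle libraries). The median log2 fold change was 4.31 for the erythroid genes, 4.04 for the B cell and precursor genes and 2.82 for the stroma and endothelium genes. Most of the erythroid sum in vehicle libraries was Car2, at 160 ± 1.75 CPM there and 195 ± 6.13 CPM in uridine libraries. Most of the stroma and endothelium sum in vehicle libraries was Kdr and Pdgfrb, the 2 lower genes. Col1a1 was at 76.7 ± 2.72 CPM in uridine and 0.236 ± 0.0577 CPM in vehicle libraries. Of 10 mast cell, basophil and eosinophil genes 6 were higher and 1 lower (737 to 746 and 427 to 440.5 CPM). Monocyte and macrophage genes gave 9 lower and 2 higher of 15 tested (2168 to 2204 and 2749 to 2783 CPM). Plasma cell genes gave 4 lower and 2 higher of 8 (704 to 730 and 1044 to 1092 CPM), and stem and progenitor genes 5 lower and 2 higher of 12 (1294 to 1348 and 1553 to 1560 CPM). The part of these other cells in the result was not tested, nor was that of RNA from young cells.

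Against uncultured aged cells the uridine cultures had more of every member. All 10 were higher by edgeR's test, where 35.8% of the genes tested were called higher, with a median log2 fold change of 1.91 and a range from 1.37 for S100a9 (SE 0.0320, adjusted p = 9.09e-30) to 4.57 for Mmp8 (SE 0.120, adjusted p = 3.98e-28). Ltf rose by 2.61 and Ngp by 2.19. In the same comparison 8 of 9 primary granule genes were lower and 1 higher, where 32.1% of the genes tested were called lower. The ratio of summed late to summed primary granule levels was 0.340 ± 0.00495 in uridine cultures, against 0.0797 ± 0.00162 in vehicle cultures and 0.0417 ± 0.00204 in uncultured aged cells.

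Set against young cells, 9 members were lower in uridine cultures and Mmp8 was higher, where 23.3% of the genes tested were called lower and 26.2% higher. The 9 lower genes stood at 30.1 to 42.6% of their young level, and the intervals of the lowest and highest do not overlap. Mmp9 had 30.1% of it (95% interval from the fitted SE 27.3 to 33.2), Ltf 34.3% (32.9 to 35.8), Ngp 35.0% (33.8 to 36.3), Camp 35.7% (33.9 to 37.5), Cd177 36.8% (34.3 to 39.5), Lcn2 37.5% (35.5 to 39.5), S100a8 40.7% (38.9 to 42.5), S100a9 40.7% (39.1 to 42.4) and Chil3 42.6% (40.9 to 44.5). Mmp8 was at 119% (108 to 131). Ratios between the lower members in uridine libraries were near those of young libraries in the pairs computed. Ngp to Ltf counts stood at 1.60 ± 0.0431 in uridine, 3.41 ± 0.704 in vehicle, 2.14 ± 0.0868 in uncultured aged and 1.56 ± 0.0253 in young libraries. For S100a9 to S100a8 the ratios were 1.80 ± 0.0150, 1.40 ± 0.0201, 2.03 ± 0.127 and 1.80 ± 0.0168 in the same groups. Camp to Ltf counts stood at 0.452 ± 0.0141 in uridine and 0.434 ± 0.00692 in young libraries, and Camp to Ngp counts at 0.283 ± 0.00171 and 0.278 ± 0.00488. The ratio with Mmp8 went apart, with Mmp8 to Mmp9 counts at 1.75 ± 0.201 in uridine and 0.438 ± 0.00399 in young libraries.

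Measured as the distance between the vehicle and the young mean, the uridine mean of these 9 genes lay 29.9 to 35.3% of the way, with a median of 33.7%. The same measure over the 256 other tested genes with at least 5 CPM in young cells and a young level at least 5 times the vehicle level had a median of 34.0% and quartiles of 31.0 and 37.5%. For 11 such erythroid genes the median was 33.3%, for 8 genes of B cells and precursors 32.9%, and for 3 stroma genes 27.9%. The median of the members thus lay within the quartiles of the other genes. This measure was taken up after the values had been seen, and the vehicle and young means enter both its terms. Whether RNA of young cells in the uridine libraries has a part in these values was not tested. Mmp8 was not eligible, since its vehicle level was above its young level.

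**Figure D5:**
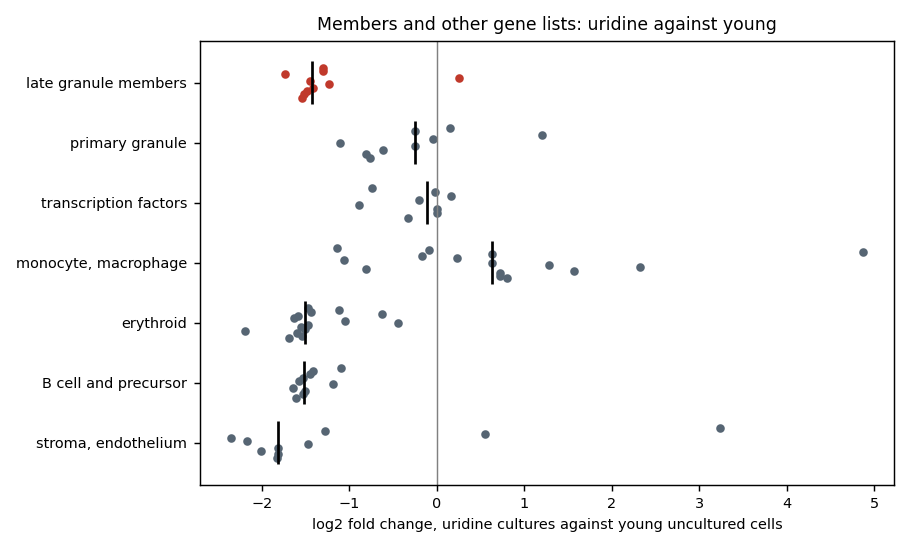
Log2 fold change of uridine cultures against uncultured young cells for each tested gene of 7 lists, with a bar at each list's median. The late granule members have a median of -1.43, next to -1.51 for erythroid genes, -1.52 for B cell and precursor genes and -1.82 for stroma and endothelium, while primary granule genes have a median of -0.25.

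Other genes ran close to the mean profile of the members over the 12 libraries, and closer than most members did. The mean profile of the 10, on gene-centred log2(CPM + 0.5), was set against 10370 other protein-coding genes with a mean of at least 5 CPM. The smallest Euclidean distances were those of Cplx2, a complexin (0.642), Itgb2l (0.833), Fn1, fibronectin (0.834), Gfra1, a co-receptor of glial cell line-derived neurotrophic factor (0.898), and Scn4b, a sodium channel subunit (0.986). Epha2, Chil1, a chitinase-like protein related to Chil3, Akap12, Ear6, a ribonuclease of eosinophils, and Crispld2 completed the nearest 10. Cplx2 was at 37.6 ± 0.551, 4.39 ± 1.15, 10.1 ± 0.675 and 105 ± 1.21 CPM in uridine, vehicle, uncultured aged and young cells. Among the members Cd177 was closest to this mean profile at 0.938 and Mmp8 farthest at 7.30. S100a9 lay at 1.27 and Lcn2 at 1.33. S100a8, Ngp, Chil3, Camp, Ltf and Mmp9 lay at 1.55, 1.86, 2.21, 2.82, 3.28 and 3.65, farther than Crispld2 at 1.42. A short distance to the mean profile is thus not likeness to each member.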

How the data were processed

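Counts of poly(A) RNA were analysed for 12 libraries, grouped by their titles. HISAT2 2.0.5 and the mm10 build are named in the submitters' processing notes. The authors deposited raw counts for 54532 Ensembl IDs, and no source used here names the program, annotation or strand setting of the counting. Symbols came from GENCODE M21, which matched 54495 IDs.

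Genes kept by filterByExpr (16675) were fitted with edgeR 4.0.16 (TMM factors, 1 mean per group, quasi-likelihood F-test), with Benjamini-Hochberg adjustment over all genes tested and a threshold of 0.05. SE is the log2 fold change divided by the root of F. The analysis was tested on simulated data. Alternatives were DESeq2 1.42.0, voom from limma 3.58.1, other scaling and filters, leaving out immunoglobulin genes, fits of the 6 compared libraries, the replicate number as a block, and leaving out each library. Near copies were sought with blastn at 90% identity over at least 150 bases.

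The members and gene lists were chosen with earlier results of these data known. Genes named besides the members came from 12 lists (any gene of the 4 neutrophil lists, otherwise the 4 most abundant or those at 0), and the 10 nearest profiles. Fcgr1, Adgre1, Arg1, C1qa, C1qb, C1qc, Igll1, Tlr4, Mmp12 and Mmp27 were named after their values were seen, and the neighbouring genes and the place between vehicle and young were also taken up then. Same-numbered libraries did not deviate together (correlations from -0.0438 to 0.0210).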

Additional observations from a re-analysis of the deposited data

How the results depend on the processing

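All 10 members kept their direction and stayed past the threshold in each of the 5 comparisons under 9 alternatives and with each of the 12 libraries left out in turn, and no log2 fold change moved by more than 0.313. The largest adjusted p was 0.0304 by edgeR, for Mmp8 in uridine against young cells without young replicate 3. With 1 library left out, all genes called numbered 10399 to 11019 for aged against young, 5461 to 6627 for uridine against vehicle, 11372 to 11944 for vehicle against uncultured aged, 10892 to 11489 for uridine against uncultured aged and 7484 to 8489 for uridine against young cells.

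The summed level of the members moved by more than its spread with other scaling. It was 2291 CPM in uridine cultures with DESeq2 size factors. With upper quartile factors it was 2287 CPM in uridine and 389 CPM in vehicle cultures and 6269 CPM in young cells. With immunoglobulin genes and Jchain left out it was 2485, 426, 692 and 6544 CPM in uridine, vehicle, uncultured aged and young libraries. The order of the groups was the same in each.

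The labels do not say that replicate numbers pair the samples. With the number as a replicate block, 10768, 6250, 11667, 11246 and 8131 genes were called in the 5 comparisons in the order above, with all 10 members called in each, against 10889, 6360, 11748, 11315 and 8240 without it. The libraries deviating best with their own number were 2 of 12. Depth limits Mmp9 most, with 15 counts over the vehicle libraries, and intervals there cover counting and library spread only as the fit models it.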
